A study of Mus musculus with 30 samples.

Results

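The genes described here are 9 receptors for secreted growth factors that were measured in mouse retinal ganglion cells (RGCs), the projection neurons of the retina, after optic nerve crush. They are the fibroblast growth factor (FGF) receptors Fgfr1, Fgfr2 and Fgfr3, the neurotrophin receptors Ntrk2, Ntrk3 and Ngfr, and the glial cell line-derived neurotrophic factor (GDNF) family receptors Ret, Gfra1 and Gfra2. They were taken by name, without a filter on their values but with earlier results of these data known. All 9 were among the 13752 genes of the RNA count table and the 13737 genes tested. The 151630 peaks of open chromatin in the ATAC table held 106 that the deposited annotation assigns to these genes, 20 of them in promoters, and all 106 were tested. The RNA libraries used here came from RGCs without crush, called day 0 (n = 3), and from days 1, 2, 3 and 4 after crush (n = 3, 2, 3 and 2). The ATAC libraries came from RGCs without crush on day 0 (n = 6) and from days 1 and 3 after crush (n = 3 and 6). Coordinates are those of the deposited tables, whose build is mm10 per the submitters' processing notes.

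All groups were RGCs of strain C57BL/6 that had been freed with papain and sorted by fluorescence, except that replicates 2 and 3 of the day 0 RNA carry the strain labels C57BL/7 and C57BL/8. The labels give no age, sex, allele, agent or sort marker. The deposited comparison and footprint tables write NT or nonTarget in the names of these same groups, which the labels do not explain. Nothing in the labels says that replicates came from separate animals, so each p-value measures only the spread between these libraries, which may be technical.

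FGF receptors, Trk receptors and Ret are receptor tyrosine kinases, which pair up when ligand binds, phosphorylate each other and recruit adaptors that switch on the RAS to ERK and PI3K to AKT pathways. Ntrk2 encodes TrkB, the receptor of BDNF, Ntrk3 encodes TrkC, the receptor of NT-3, and Ngfr encodes p75, which binds all neurotrophins and has no kinase domain. Ret needs a lipid-anchored partner to see its ligand: GFRα1, from Gfra1, for GDNF, and GFRα2, from Gfra2, for neurturin. In RGCs, BDNF acting through TrkB and FGF2 acting through FGF receptors are long-studied signals for cell survival and axon growth after injury.

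Among the libraries, reads counted in genes ranged from 19024286 to 27561352 for RNA. Reads counted in peaks ranged from 20006724 to 72579102 for ATAC. The share of ATAC reads lying in peaks was 32.2 to 49.6% on day 0, 15.7 to 18.6% on day 1 and 17.3 to 45.6% on day 3. The authors' deposited RNA comparison table did not follow the sample names in one place. Its column named day 3 against day 0 lay a median of 0.0655 log2 units from the day 2 contrast fitted here over 13737 genes, and a median of 0.309 log2 units from the day 3 contrast. Which name is off could not be told from the files, and the names of the count table are used throughout. Every statement below on the order of RNA levels on days 2 and 3 rests on those names. The RGC marker genes summed to 9905 to 10562 CPM (counts scaled to a common library size by TMM) on day 3. On day 0 they summed to 13160 to 14622 CPM. On day 3, 2 of 17 were higher and 11 lower, where 20.4% of all genes were higher and 20.1% lower. Rbpms, which marks all RGCs, averaged 255.8 CPM on day 3 and 579.1 CPM on day 0. Other RGC genes differed from it. Pou4f1 averaged 155.3 CPM on day 3 and 407.0 CPM on day 0, and Thy1 1523 CPM on day 3 and 1878 CPM on day 0. Slc17a6 was higher, at 1678 CPM on day 3 and 1291 CPM on day 0. Microglia and macrophage markers summed to 236 to 337 CPM on day 4, against 60.6 to 96.8 CPM on day 0. On day 4, 8 of 11 were higher and none lower, where 19.8% of all genes were higher and 19% lower. These markers summed to 89.4 to 507 CPM on day 1, 224 to 254 CPM on day 2 and 157 to 161 CPM on day 3. Müller glia and astrocyte markers summed to 338 to 464 CPM on day 3, against 684 to 796 CPM on day 0. On day 3, 2 of 13 were higher and 4 lower, beside the same 20.4% and 20.1% of all genes. Single glial genes differed: Rlbp1 averaged 17.8 CPM on day 3 and 2.56 CPM on day 0, and Glul 133 and 163 CPM. Rod and cone markers summed to 250 to 1115 CPM within day 0 and 735 to 864 CPM on day 3. The part these marker levels play in the receptor values below was not tested. In bulk samples, fewer cells of a type and less RNA per cell cannot be told apart.

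The receptors did not move as a group. Fgfr1 rose on each of the 4 days after crush, Ntrk2, Ntrk3 and Gfra2 fell, and Ret rose on day 4 alone among the days compared with day 0. Across all days in 1 test (edgeR's quasi-likelihood test, Benjamini-Hochberg adjusted p under 0.05), 5 of the 9 members changed, where 47.1% of all genes tested did. On day 1 against day 0, 1 member was higher and none was lower, with 11.4% of all genes called in either direction. On day 2, 1 was higher and 2 were lower, with 29.3% of all genes called. On day 3, 1 was higher and 4 were lower, with 40.5% of all genes called, and on day 4, 2 were higher and 3 were lower, with 38.9% of all genes called. The median log2 fold change of the 9 members was -0.27, -0.26, -0.58 and 0.09 on days 1, 2, 3 and 4, where the median over all genes was 0.01, 0.04, 0.03 and 0.06.

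**Figure D1:**
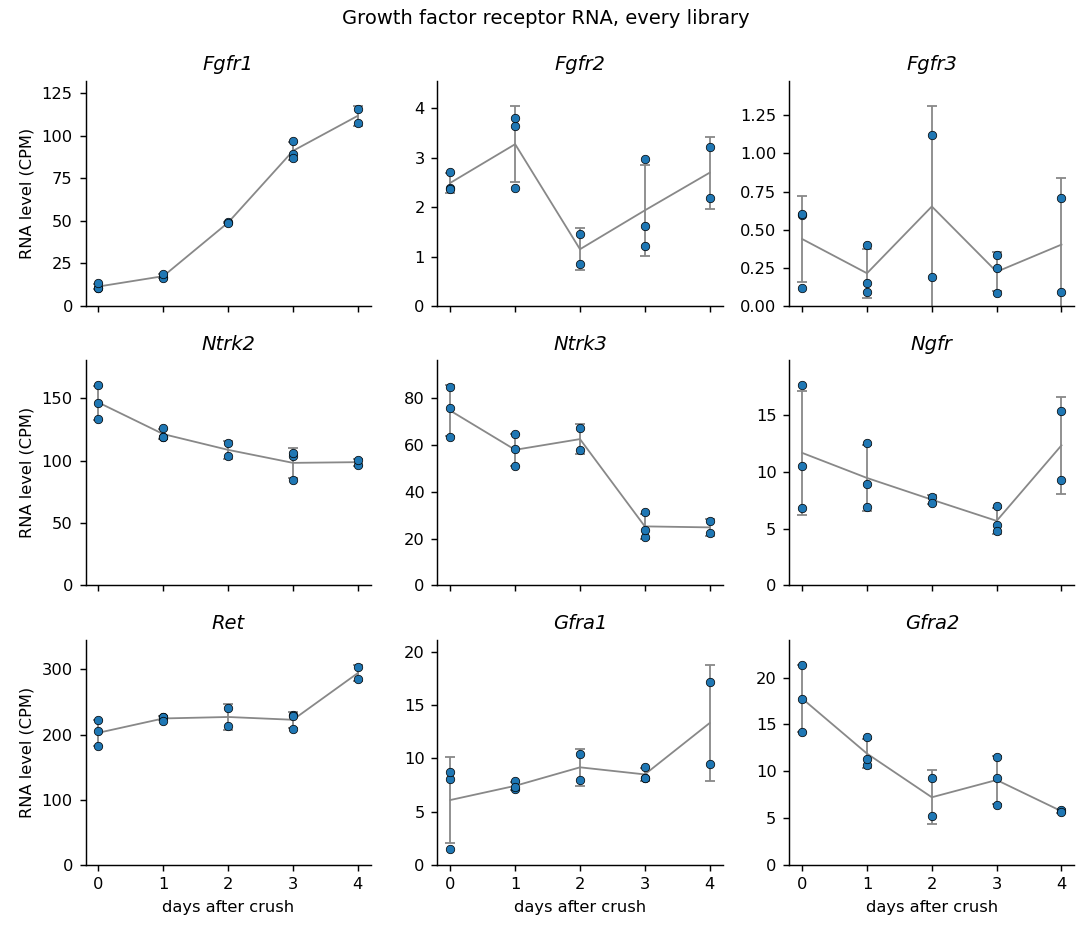
Level of each of the 9 receptors in every RNA library, in CPM (vertical axes scaled per gene), against the day after crush; points are libraries (n = 3, 3, 2, 3 and 2), the line joins the day means and bars are ± SD. Under the day names used here, Fgfr1 climbs without overlap to 107.73 and 115.84 CPM on day 4 and Ntrk3 drops between days 2 and 3. Fgfr2 and Fgfr3 stay near the low end of detection.

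Fgfr1, an FGF receptor found on many neurons, had the largest called fold change of the 9. Its gene lies at chr8:25513654-25575718 on the plus strand. It stood at 10.50, 10.62 and 13.26 CPM in the day 0 libraries, at 16.97, 16.62 and 19.06 CPM on day 1, and at 49.29 and 48.80 CPM on day 2. The day 3 libraries held 89.57, 87.03 and 96.92 CPM and the day 4 libraries 107.73 and 115.84 CPM. Under the count table's day names, the 5 days were ordered without any overlap, from day 0 at the bottom to day 4 at the top. The places of days 2 and 3 depend on those names. In the authors' deposited table, the column named day 3, which follows the day 2 libraries, lists Fgfr1 at 2.03 log2 units. The counts behind these values ran from 194 to 2883 reads per library.

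Against day 0, Fgfr1 was 1.53-fold higher on day 1 (log2 0.61 ± 0.12 SE, adjusted p = 0.00267) and 4.27-fold higher on day 2 (log2 2.09 ± 0.12, adjusted p = 3.45e-09). It was 7.93-fold higher on day 3 (log2 2.99 ± 0.12, adjusted p = 6.68e-12) and 9.73-fold higher on day 4 (log2 3.28 ± 0.13, adjusted p = 8.76e-12). With the days named as in the count table, most of the rise came in the middle of the series. Day 2 exceeded day 1 by 1.48 log2 units (adjusted p = 7.86e-07) and day 3 exceeded day 2 by 0.89 (adjusted p = 0.000138, with 16.9% of all genes called). Day 4 and day 3 did not pass the test against each other, at 0.29 log2 units (95% interval 0.06 to 0.53, adjusted p = 0.253, with 1.74% called). The day 1 call was the least firm, with an adjusted p of 0.071 when libraries of the other days were left out of the model.

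The other FGF receptors passed no test. Fgfr2, an FGF receptor of many epithelia and glia, ranged from 0.85 to 3.79 CPM over the 13 libraries, on 19 to 86 reads each. It averaged 1.15 CPM on day 2 and 2.49 CPM on day 0, without overlap between those libraries, yet this difference did not pass (log2 -1.11 ± 0.53, adjusted p = 0.130). Over all days its adjusted p was 0.175. Fgfr3, a receptor of glial progenitors and astrocytes, had 2 to 25 reads per library, 0.09 to 1.12 CPM, and an adjusted p of 0.603 over all days. At that depth, the 95% interval of its day 3 difference ran from -2.85 to 0.99 log2 units, so a change of several-fold was not detectable.

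Ntrk2, the gene of TrkB, at chr13:58806569-59133970 on the plus strand, fell on days 2, 3 and 4. Its day 0 libraries held 146.36, 132.97 and 160.25 CPM, its day 1 libraries 119.25, 125.75 and 118.69 CPM, and its day 2 libraries 103.30 and 113.90 CPM. Day 3 held 103.96, 106.37 and 84.23 CPM, and day 4 held 96.74 and 100.77 CPM. No library after crush reached the lowest of day 0. The fall was 0.43 ± 0.11 log2 units on day 2 (adjusted p = 0.0086), 0.58 ± 0.10 on day 3 (adjusted p = 0.000185) and 0.57 ± 0.11 on day 4 (adjusted p = 0.000697). The day 3 level was thus 1.49-fold lower than that of day 0, and it was also below day 1 by 0.30 log2 units (adjusted p = 0.0272, with 33.5% of all genes called). Neighbouring days after day 1 did not pass against each other (adjusted p = 0.427, 0.429 and 0.984 for days 2, 3 and 4, each against the day before). The day 1 difference of -0.27 against day 0 missed the threshold (adjusted p = 0.0913) and the day 2 call was lost without day 2 replicate 1 (adjusted p = 0.105).

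Ntrk3, the gene of TrkC, at chr7:78175959-78738012 on the minus strand, fell on days 3 and 4. The day 0 libraries held 75.67, 63.20 and 84.66 CPM, the day 1 libraries 64.50, 57.99 and 50.97 CPM, and the day 2 libraries 57.79 and 66.98 CPM. The day 3 libraries held 20.67, 31.16 and 23.68 CPM and the day 4 libraries 22.20 and 27.29 CPM. Days 1 and 2 overlapped day 0, and every library of days 3 and 4 lay below every library of the earlier days. Against day 0, Ntrk3 was 2.96-fold lower on day 3 (log2 -1.57 ± 0.16, adjusted p = 5.06e-07) and 3.01-fold lower on day 4 (log2 -1.59 ± 0.18, adjusted p = 2.41e-06). Its differences of -0.37 on day 1 (adjusted p = 0.142) and -0.26 on day 2 (adjusted p = 0.295) did not pass. Day 3 against day 2 was -1.31 log2 units (95% interval -1.65 to -0.97, adjusted p = 8.2e-05), and day 4 differed from day 3 by only -0.03 (adjusted p = 0.969). This timing depends on which libraries are those of day 3: in the authors' deposited table, the column named day 3, which follows the day 2 libraries, lists Ntrk3 at -0.32 with an adjusted p of 0.235.

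Ngfr, the gene of p75, at chr11:95568818-95587735 on the minus strand, varied widely among the uncrushed libraries. It had 17.59, 10.53 and 6.84 CPM on day 0, 6.87, 12.55 and 8.93 CPM on day 1, and 7.80 and 7.28 CPM on day 2. It had 5.28, 6.98 and 4.76 CPM on day 3, and 15.36 and 9.29 CPM on day 4. One day 3 library lay above the lowest day 0 library, so the groups overlapped. The day 3 fall of 1.03 ± 0.33 log2 units passed (adjusted p = 0.0189) but rested on single libraries. It became -0.64 (adjusted p = 0.123) without day 0 replicate 1, and its adjusted p was 0.0587 without day 3 replicate 1 and 0.0730 without day 3 replicate 3. On day 4 Ngfr was 0.09 log2 units from day 0 (adjusted p = 0.876), and over all days it did not pass (adjusted p = 0.0655).

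Ret, at chr6:118151745-118197718 on the minus strand, passed no test against day 0 on days 1, 2 and 3 and was higher on day 4. It had 181.86, 204.68 and 221.61 CPM on day 0, 226.46, 226.39 and 221.20 CPM on day 1, and 241.36 and 212.52 CPM on day 2. It had 208.75, 230.02 and 229.18 CPM on day 3, and 303.35 and 285.35 CPM on day 4. Both day 4 libraries exceeded every other library of the series. The rise on day 4 was 1.45-fold over day 0 (log2 0.54 ± 0.093, adjusted p = 0.000186) and 0.40 log2 units over day 3 (adjusted p = 0.0385). On days 1, 2 and 3 the differences from day 0 were 0.15, 0.16 and 0.13 (adjusted p = 0.290, 0.216 and 0.223), and the 95% interval for day 3 ran from -0.03 to 0.30.

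The partner of Ret in neurturin signalling fell. Gfra2, at chr14:70890120-70979838 on the plus strand, had 21.38, 17.70 and 14.23 CPM on day 0, 10.72, 13.61 and 11.33 CPM on day 1, and 9.25 and 5.18 CPM on day 2. It had 6.42, 9.25 and 11.53 CPM on day 3, and 5.87 and 5.59 CPM on day 4. Every library after crush was below every library of day 0. The fall passed on day 2 (log2 -1.30 ± 0.30, adjusted p = 0.00374), day 3 (log2 -0.97 ± 0.26, adjusted p = 0.00645) and day 4 (log2 -1.63 ± 0.31, adjusted p = 0.000403), but not on day 1 (log2 -0.58, adjusted p = 0.166). The day 2 call was lost without day 2 replicate 2 (adjusted p = 0.0846).

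Gfra1, the GDNF co-receptor gene at chr19:58235604-58455909 on the minus strand, passed no test. It had 8.06, 8.76 and 1.44 CPM on day 0, 7.84, 7.12 and 7.31 CPM on day 1, and 10.37 and 7.95 CPM on day 2. It had 8.14, 9.21 and 8.14 CPM on day 3, and 9.45 and 17.20 CPM on day 4. Replicate 3 of day 0, with 37 reads where the other two had 149 and 203, stood far below the rest. The day 4 difference was 1.13 ± 0.47 log2 units (adjusted p = 0.0680). With DESeq2 it was called (log2 1.10, adjusted p = 0.0417), and leaving out single libraries of days 0 and 4 gave 0.641 to 1.504 log2 units. It was 0.652 (adjusted p = 0.0974) without day 0 replicate 3 and passed without day 0 replicate 1 (1.37, adjusted p = 0.0484) and without day 0 replicate 2 (1.50, adjusted p = 0.0313).

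**Figure D2:**
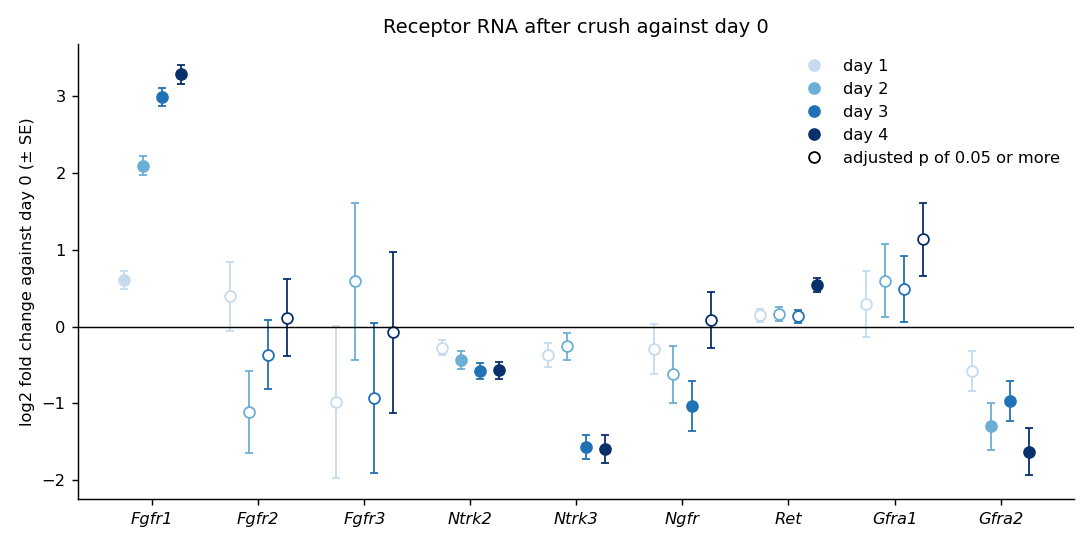
Fitted log2 fold change of each receptor against day 0 (vertical axis, bars ± SE), with days 1 to 4 from left to right within each gene; filled points passed the adjusted p threshold of 0.05 and open points did not. Fgfr1 lies above 0 on all 4 days and reaches 3.28, Ntrk3 and Gfra2 lie lowest among the called points, and no point of Fgfr2, Fgfr3 or Gfra1 is filled.

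The order of the days within each receptor can be read from the means and standard deviations. Fgfr1 averaged 11.5 ± 1.56, 17.5 ± 1.32, 49.0 ± 0.35, 91.2 ± 5.14 and 111.8 ± 5.73 CPM on days 0, 1, 2, 3 and 4 (SD, n = 3, 3, 2, 3 and 2). Ntrk2 averaged 146.5 ± 13.6, 121.2 ± 3.92, 108.6 ± 7.50, 98.2 ± 12.1 and 98.8 ± 2.85 CPM, so its last 3 days lay within their spread of each other. Ntrk3 averaged 74.5 ± 10.8, 57.8 ± 6.76, 62.4 ± 6.50, 25.2 ± 5.40 and 24.7 ± 3.60 CPM, which formed an upper set of 3 days and a lower set of 2. Ret averaged 202.7 ± 19.9, 224.7 ± 3.02, 226.9 ± 20.4, 222.6 ± 12 and 294.4 ± 12.7 CPM, with only day 4 apart from the others. Gfra2 averaged 17.8 ± 3.57, 11.9 ± 1.53, 7.22 ± 2.88, 9.06 ± 2.56 and 5.73 ± 0.195 CPM. Days 2 and 3 of Gfra2 did not separate. Levels are not compared between genes, since the count table gives no transcript lengths.

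For each receptor that changed over the days, the genes with the most similar pattern were found by Pearson's r of log2 CPM over the 13 libraries, among 10353 genes. These are descriptions, since libraries of a day share that day's level and their depth. Fgfr1 was matched most closely by Adcyap1, which encodes the neuropeptide PACAP (r = 0.993), the choline kinase gene Chka (0.990) and the sulfiredoxin gene Srxn1 (0.989). Ntrk2 was matched by the adenylyl cyclase gene Adcy9 (0.962), the plasma membrane calcium pump gene Atp2b3 (0.959) and the spectrin gene Sptbn1 (0.957). The genes nearest to Ntrk3 were Lrp1b (0.977), the RGC transcription factor gene Pou4f1 (0.973) and the cation channel gene Trpm3 (0.968). Those nearest to Gfra2 were Slc41a1 (0.964), Arhgef17 (0.952) and Tob1 (0.938), and those nearest to Ret were Rnf25 (0.917), Nceh1 (0.857) and Dnajc11 (0.857).

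Ligands of these receptors were next read from fixed lists, which were also chosen with earlier results of these data known. Of 5 neurotrophin symbols only Bdnf, the TrkB ligand gene, was tested, and it rose. Bdnf averaged 126.3 CPM on day 3 and 53.5 CPM on day 0 (log2 1.24 ± 0.12, adjusted p = 4.33e-07), and it was also called on days 2 and 4. Of 18 FGF ligand genes 7 were tested, and none was higher on any day, while 1, 3, 3 and 4 were lower on days 1, 2, 3 and 4. Over all genes 5.45, 14.5, 20.1 and 19% were lower on those days. Fgf1, which binds all FGF receptors, averaged 330.6 CPM on day 3 and 648.2 CPM on day 0 (log2 -0.97, adjusted p = 2.86e-05). Fgf9 averaged 47.8 CPM on day 3 and 124.9 CPM on day 0 (log2 -1.39, adjusted p = 2.13e-06). Fgf18 was lower on day 3 (log2 -2.57, adjusted p = 0.00717) and Fgf23 on day 4 (log2 -1.24, adjusted p = 0.0223). Of the 5 GDNF family ligands and GDF15, 2 were tested and neither passed, with Gdnf at 0.831 CPM on day 3 and 1.86 CPM on day 0, and Artn at 0.802 CPM on day 3 and 0.679 CPM on day 0.

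The intracellular FGF homologous factors, which share the FGF fold but bind voltage-gated sodium channels and not FGF receptors, were lower on day 3 in 4 of 4 cases, and in 2, 3 and 4 of 4 on days 1, 2 and 4, where 20.1% of all genes were lower on day 3 and 5.45, 14.5 and 19% on days 1, 2 and 4. Their median log2 fold change on day 3 was -1.18, where the median of all genes was 0.03. Fgf13 showed the deepest fall of the 4 on day 3 (log2 -2.15 ± 0.18, adjusted p = 4.72e-08), with 13.7 CPM on day 3 and 60.6 CPM on day 0. Fgf11 (log2 -1.17) and Fgf12 (log2 -1.18) were close to each other, and Fgf14 fell least, by 0.55 (adjusted p = 0.00051). This count runs alongside the RGC markers, of which 11 of 17 fell on day 3, and the part of that in it was not tested.

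Other receptors and co-receptors of the same families changed in both directions. Of 21 tested from a list of 24, 5 were higher and 11 lower on day 3 (median log2 -0.59), where 20.4% of all genes were higher and 20.1% lower. On day 4, 7 were higher and 9 lower, with 38.9% of all genes called. The sortilin family genes Sort1 and Sorl1, whose products sort neurotrophins and their receptors inside cells, both fell. Sort1 averaged 151.7 CPM on day 3 and 394.8 CPM on day 0 (log2 -1.38, adjusted p = 8.05e-10). Sorl1 averaged 59.5 CPM on day 3 and 208.9 CPM on day 0 (log2 -1.81, adjusted p = 4.23e-10). Lingo1, a partner of p75 in the response to myelin, fell by 1.28 log2 units on day 3 (adjusted p = 4.09e-08). Sdc2, a heparan sulfate proteoglycan of the family that presents FGFs to their receptors, rose to 89.2 CPM on day 3, against 21.0 CPM on day 0 (log2 2.08, adjusted p = 2.97e-09). Of 24 other receptor tyrosine kinases tested from a list of 32, 2 were higher and 9 lower on day 3, beside the same 20.4% and 20.1% of all genes. Epha4 (log2 -1.04), Epha5 (log2 -0.53), Alk (log2 -1.50) and Kit (log2 -2.86) were the 4 with the smallest p over the days, and each was lower on day 3.

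Genes that act just below the receptors were read next. Of 36 adaptors and proximal signalling genes tested from a list of 39, 12 were higher and 3 lower on day 3, where 20.4% of all genes were higher and 20.1% lower, and their median log2 fold change was 0.07. As 40.5% of all genes were called in either direction, the adaptors' number called was near the background. Dok5, an adaptor of Ret and Trk receptors, averaged 68.9 CPM on day 3 and 16.6 CPM on day 0 (log2 2.06, adjusted p = 2.11e-08). Maged1, an adaptor that binds p75, rose by 0.90 on day 3 (adjusted p = 3.12e-08) after a fall of 0.27 on day 1 (adjusted p = 0.0237). Pik3r1, a regulatory subunit of PI3K, rose on day 1 (log2 1.61, adjusted p = 4.55e-07) and day 2 (log2 1.30) and was at -0.30 on day 3 (adjusted p = 0.0683).

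Feedback inhibitors and ERK-induced genes, which many tissues switch on when FGF receptors signal, were higher in 8 and lower in 2 of 19 tested on day 2, and higher in 7 and lower in 5 on day 3. Of all genes, 14.8% were higher and 14.5% lower on day 2, and 20.4% higher and 20.1% lower on day 3. Their median log2 fold change on day 3 was 0.55. Spry2, an inhibitor of ERK signalling, averaged 79.4 CPM on day 3 and 18.6 CPM on day 0 (log2 2.10, adjusted p = 4.51e-09). Etv5, an ETS factor induced by FGF signalling, averaged 105.9 CPM on day 3 and 31.2 CPM on day 0 (log2 1.76, adjusted p = 9.69e-10). Lrig2 (log2 0.99, adjusted p = 2.69e-08) and the ubiquitin ligase gene Cblb (log2 0.96, adjusted p = 1.54e-07) were also higher on day 3. Both Spry2 and Etv5 were called on all 4 days, as Fgfr1 was.

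**Figure D3:**
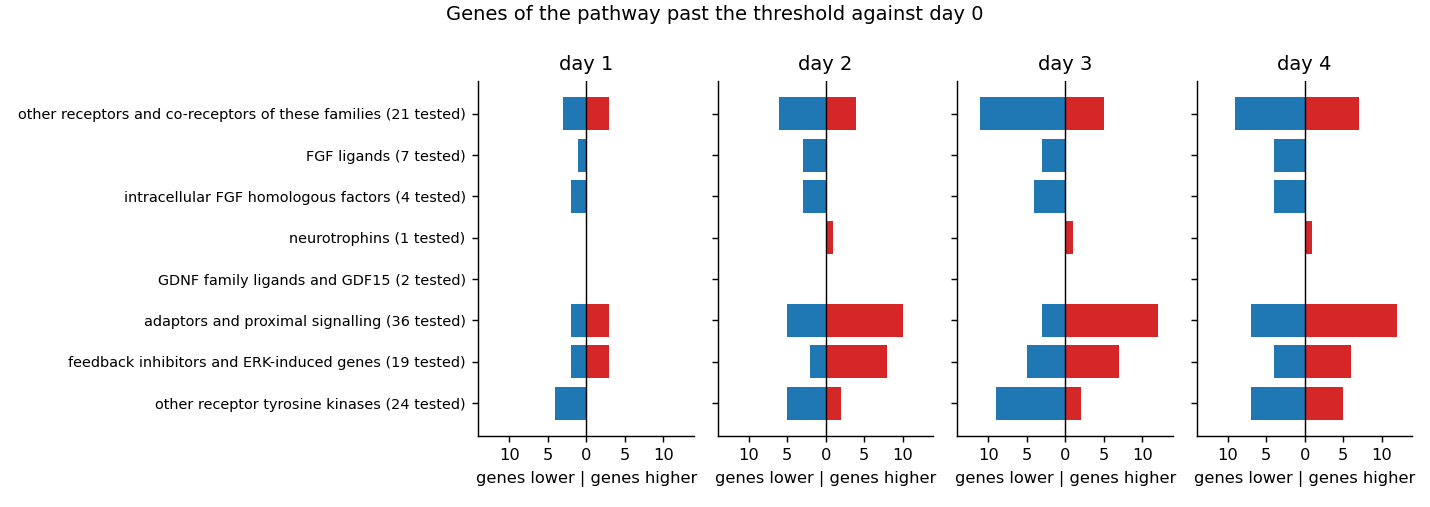
Number of genes called higher (right) and lower (left) against day 0 in each of the fixed pathway lists on days 1 to 4, beside the number tested. On day 3 the 4 intracellular FGF homologous factors are all lower and the other receptors and co-receptors stand at 5 higher and 11 lower, while adaptors stand at 12 higher and 3 lower.

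Chromatin at the receptor genes was read from the ATAC counts, with the deposited batch number as a term in the fit. The labels do not say what the batches are. Batch 2 held 9 libraries, among them all of day 1, and batch 1 held 6, from days 3 and 0 only. On day 3 against day 0, 21 of the 106 peaks were more open and 11 less open (edgeR's quasi-likelihood test), which is 30.2% called where 23.8% of all peaks were. The more open share was 19.8% for the receptor peaks and 16.4% for all peaks, and the less open share was 10.4% for the receptor peaks and 7.39% for all peaks. All 32 called peaks had the same sign within each batch. They were picked by the fit over both batches, so this shared sign is not a separate check. Tested alone, batch 2 called 28 of the 32 and batch 1 called 4. On day 1 against day 0, 12 receptor peaks were more open and none less open, 11.3% against a background of 7.84% of all peaks. With the replicate number as a block in place of batch, 5 were more open and none less open, 4.72% against 4.1% of all peaks. Only 1 receptor peak, Ntrk3 peak 14, passed on day 3 against day 1, where 1.18% of all peaks did.

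The promoter windows of RefSeq (build GRCm38.p6, from 250 bases before to 50 bases after the start) covered 5 of the 9 members: Fgfr2, Fgfr3, Ntrk2, Ngfr and Gfra1. A pair is shown to set the TrkB promoter, which lost accessibility, against the RefSeq start of Fgfr2, where the overlapping peak did not pass. Both are written 5′ to 3′ on the gene's strand, with CpG pairs in capitals.
Ntrk2, chr13:58806319-58806618, plus strand: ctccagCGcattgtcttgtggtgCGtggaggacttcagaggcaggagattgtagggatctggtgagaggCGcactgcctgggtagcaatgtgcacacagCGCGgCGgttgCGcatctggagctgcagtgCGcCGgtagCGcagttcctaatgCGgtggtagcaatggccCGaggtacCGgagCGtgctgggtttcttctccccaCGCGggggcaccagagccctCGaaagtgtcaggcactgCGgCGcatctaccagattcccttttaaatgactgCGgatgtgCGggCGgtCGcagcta
Fgfr2, chr7:130266759-130267058, minus strand: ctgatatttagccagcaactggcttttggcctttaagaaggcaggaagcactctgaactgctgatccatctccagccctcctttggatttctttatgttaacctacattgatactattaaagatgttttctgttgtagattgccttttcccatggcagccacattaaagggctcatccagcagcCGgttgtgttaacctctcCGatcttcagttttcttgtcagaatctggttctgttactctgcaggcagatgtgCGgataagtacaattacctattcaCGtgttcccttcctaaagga

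The Ntrk2 window held 23 CpG pairs with 61.3% GC, and the Fgfr2 window held 4 with 43.7% GC, where the medians of 32851 RefSeq windows were 7 CpG pairs and 52.7% GC. Of 3 motifs read on both strands, none occurred in the 6 windows of the members. They were TGANTCA, the AP-1 site, found in 7.81% of all windows, TGACGTCA, the cyclic AMP response element, found in 1.79%, and TGATGCAA, a composite C/EBP and ATF site, found in 0.895%.

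At Ntrk2 the promoter peak was less open on day 3, when the RNA was lower too, and an intron peak was more open. The promoter peak, chr13:58805500-58810678, which holds the sequence above, had 37.29, 56.65, 40.19, 68.35, 67.93 and 61.73 CPM on day 0, 37.12, 35.82 and 33.31 CPM on day 1, and 33.10, 21.06, 21.10, 40.66, 60.95 and 61.03 CPM on day 3. On each day the first 3 libraries belong to batch 2 and any others to batch 1, and within each batch the libraries of days 3 and 0 did not overlap. With the batch term it fell by 0.56 ± 0.14 log2 units on day 3 (adjusted p = 0.00625). Within batch 2 it averaged 25.1 CPM on day 3 and 44.7 CPM on day 0 (log2 -0.92, adjusted p = 0.000189), and within batch 1 54.2 CPM on day 3 and 66.0 CPM on day 0 (log2 -0.29, adjusted p = 0.496). The call was lost without the batch term (log2 -0.48, adjusted p = 0.284) and when the in-peak read share was added to the model (log2 -0.26, adjusted p = 0.084).

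The Ntrk2 intron peak, chr13:58971125-58972173, had 1.10, 1.53, 1.28, 2.47, 1.90 and 2.53 CPM on day 0, 2.55, 1.42 and 2.82 CPM on day 1, and 3.63, 4.69, 4.40, 4.84, 5.74 and 5.08 CPM on day 3. Every day 3 library exceeded every library of the other days. It rose by 1.44 ± 0.16 log2 units on day 3 (adjusted p = 1.91e-06), and it was called within batch 2 (log2 1.61) and within batch 1 (log2 1.19, adjusted p = 0.000103). In all, 1 of the 10 Ntrk2 peaks was more open and 4 were less open on day 3, where 16.4% and 7.39% of all peaks were. The less open peaks had log2 fold changes of -0.62 to -0.42, and both promoter peaks were among them.

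All but 1 of the Fgfr1 peaks were more open on day 3, where 16.4% of all peaks were. The 5 called of 6 had log2 fold changes of 0.36 to 1.24. They comprised the 4 promoter peaks and 1 intron peak. The main promoter peak, chr8:25518254-25521040, had 20.94, 26.13, 29.13, 30.77, 40.99 and 39.38 CPM on day 3, against 13.25, 16.08, 15.21, 36.09, 28.20 and 38.77 CPM on day 0. It rose by 0.44 ± 0.14 log2 units (adjusted p = 0.0249). The change was 0.70 in batch 2 and 0.10 in batch 1, and the difference between batches was not tested. Batch 2 had 25.4 CPM on day 3 and 14.8 CPM on day 0 (log2 0.70, adjusted p = 0.0016), without overlap. Batch 1 had 37.0 CPM on day 3 and 34.4 CPM on day 0 (log2 0.10, adjusted p = 0.842), with overlap. The call was lost without the batch term (adjusted p = 0.491) and when the in-peak read share was added to the model (adjusted p = 0.131).

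A smaller Fgfr1 peak just downstream, chr8:25521207-25522021, kept its call in more settings. It had 0.98, 0.90, 0.94, 1.58, 1.55 and 2.62 CPM on day 0, 2.01, 1.99 and 2.47 CPM on day 1, and 2.56, 3.93, 3.78, 3.04, 2.91 and 2.80 CPM on day 3. One day 0 library, replicate 6, lay above the lowest day 3 library, and the rest did not overlap. The difference was 1.24 ± 0.20 log2 units on day 3 (adjusted p = 0.000122), at 1.78 within batch 2 and 0.62 within batch 1 (adjusted p = 0.141).

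**Figure D4:**
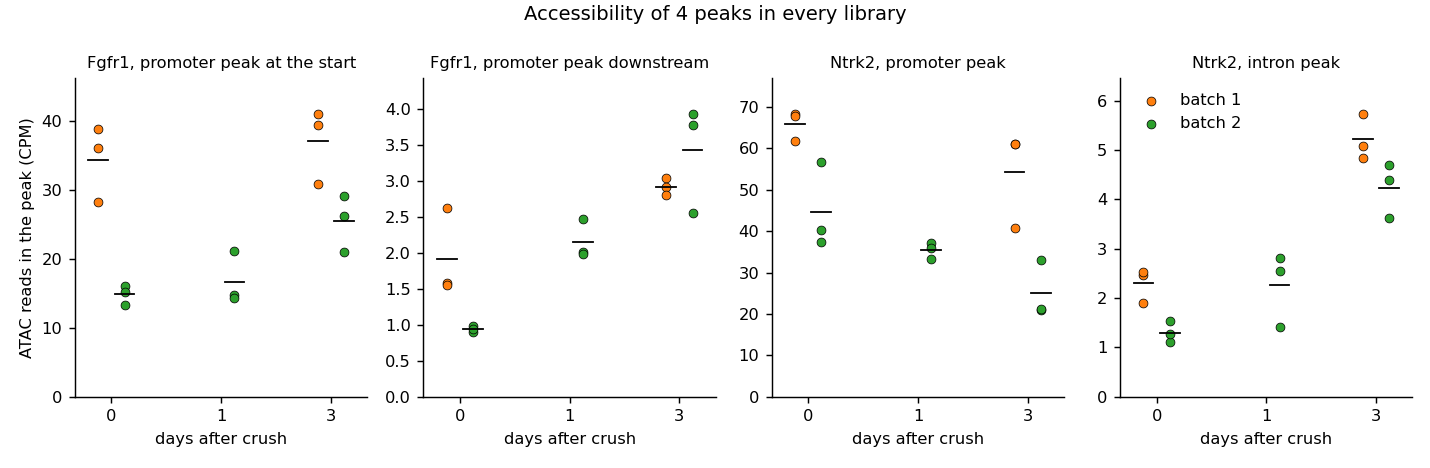
ATAC level (CPM, TMM-normalised) of 4 receptor peaks in every library of days 0, 1 and 3, with the deposited batch marked by colour and the mean of each batch and day as a short line. The Ntrk2 intron peak is highest in all 6 day 3 libraries, while day 3 against day 0 is 0.70 in batch 2 and 0.10 in batch 1 for the Fgfr1 promoter peak and -0.92 in batch 2 and -0.29 in batch 1 for the Ntrk2 promoter peak (log2).

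Ntrk3 carried the most peaks, 32, and its chromatin changed in both directions. On day 1, 10 of the 32 were more open (log2 0.57 to 1.10, median 0.77, adjusted p 0.00867 to 0.0497), where 5.44% of all peaks were. Of the 10, 9 lay in introns, and the RNA did not pass on that day. Only 1 of these 10 was also called more open on day 3. On day 3, 4 peaks were more open (0.60 to 1.17) and 4 less open (-0.83 to -0.48), where 16.4% and 7.39% of all peaks were. The deepest loss, in an intron at chr7:78409682-78410679, took the peak to 1.30, 2.29, 1.72, 3.04, 2.33 and 2.28 CPM on day 3, against 3.29, 3.81, 3.61, 4.31, 3.70 and 4.06 CPM on day 0. No library of day 3 reached the lowest of day 0 (log2 -0.83 ± 0.15, adjusted p = 0.000257). Within batch 2 it averaged 1.77 CPM on day 3 and 3.57 CPM on day 0, and within batch 1 2.55 CPM on day 3 and 4.02 CPM on day 0. The day 1 calls depend on libraries: the day 1 count over all 106 receptor peaks was 0 when day 1 replicate 2 or replicate 3 was left out. Of all 151630 peaks, 470 and 419 were called in those fits. With the replicate number as a block, 4 of these 10 Ntrk3 peaks were called. The share of reads in peaks was 15.7 to 18.6% in the day 1 libraries, against 32.2 to 49.6% on day 0. With that share in the model, 1 receptor peak was called on day 1, where 895 of all 151630 peaks were.

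Peaks of the remaining members changed away from their main promoters. Fgfr2 had 4 more open peaks (0.87 to 1.20) and 1 less open (-0.75) of 11, where 16.4% of all peaks were more open and 7.39% less open. Its strongest opening by p was an intron peak at chr7:130215199-130216279, with 2.85, 4.16, 4.07, 4.18, 4.37 and 4.86 CPM on day 3, against 1.48, 1.63, 2.29, 2.91, 2.61 and 2.05 CPM on day 0 (log2 0.93, adjusted p = 6.6e-05). Only the lowest day 3 value dipped below the highest of day 0, and within each batch the groups did not overlap, with 3.69 CPM on day 3 and 1.80 CPM on day 0 in batch 2 and 4.47 CPM on day 3 and 2.52 CPM on day 0 in batch 1. The Fgfr2 window printed above shares 57 of its 300 bases with a promoter peak at chr7:130264881-130266815, which did not pass (log2 0.20, adjusted p = 0.264). The deposited peak annotation also places a Fgfr2 promoter peak at chr7:133119610-133125499, where the deposited gene coordinates begin, 2856542 bases from the RefSeq start. Beside the same 16.4% of all peaks, Ngfr had 3 more open of 13 (0.55 to 0.93). One of them lies 9821 bases upstream, at chr11:95597556-95598167, with a mean of 2.78 CPM on day 3 and 1.59 CPM on day 0 (log2 0.93, adjusted p = 0.0025). In batch 2 it averaged 2.78 CPM on day 3 and 0.931 CPM on day 0, and in batch 1 2.78 CPM on day 3 and 2.25 CPM on day 0, where the libraries overlapped. It did not pass without the batch term or in batch 1 alone (log2 0.84 and 0.33).

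The GDNF receptor genes are read beside all peaks, of which 16.4% were more open and 7.39% less open on day 3. Gfra2 had 2 more open (1.03 and 1.09) and 1 less open (-0.56) of 14 peaks, and Gfra1 had 1 more open (1.03) and 1 less open (-0.69) of 8. The leading peaks of both did not pass in batch 1 alone, at 1.03 for Gfra2 and 0.47 for Gfra1. Ret had none called of 5 on day 3, where its RNA did not pass either. Its closest was a peak at -0.56 (adjusted p = 0.0507). Fgfr3 had 1 more open of 7 (0.70, adjusted p = 0.0422), a call lost without the batch term (log2 0.63) among other settings. The strongest promoter peak of Fgfr2, Fgfr3, Ntrk3, Ngfr, Ret, Gfra1 and Gfra2 did not pass on day 3 in any of the 7 genes, with log2 fold changes of -0.17 to 0.15 and adjusted p from 0.273 to 0.984. For Fgfr2 this was the peak at the deposited start, 2856542 bases from the RefSeq start, where the overlapping peak was at 0.20. For Ntrk3 it lies 1884 bases from an annotated start, and the deposited and RefSeq gene starts lie 156978 bases apart. Among the 20 promoter peaks of the members, 6 were more open and 2 less open, where 10.1% and 8.97% of all promoter peaks were.

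**Figure D5:**
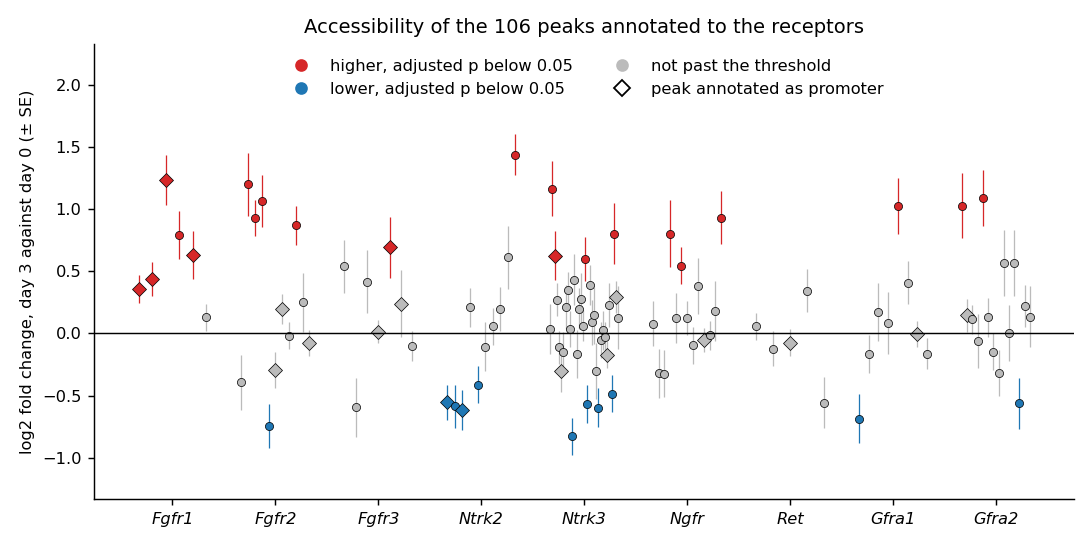
Log2 fold change of each of the 106 receptor peaks on day 3 against day 0 (vertical axis, ATAC, fit with batch, bars ± SE), grouped by gene and ordered by position; red and blue points passed the adjusted p threshold of 0.05, grey points did not, and diamonds are promoter peaks. Fgfr1 peaks lie above 0 with 5 of 6 called, both Ntrk2 promoter peaks lie below, and no Ret peak passed. Of all peaks, 16.4% were more open and 7.39% less open.

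Footprints, which are short protected stretches inside open chromatin taken as a sign of a bound factor, were read from the authors' deposited tables. The authors pooled libraries by day, and the tables used here list only sites bound on at least 1 day, so they carry no error. The factors are ATF3, ATF4, CEBPG and DDIT3, stress-response transcription factors of the bZIP family. In the authors' deposited table, an ATF3 site in the Fgfr1 promoter, chr8:25520941-25520949, scored 0.060, 0.093 and 0.197 on days 0, 1 and 3 and was bound on day 3 only. An ATF3 site in the Ntrk2 promoter, chr13:58806081-58806091, scored 0.106, 0.144 and 0.191 and was also bound on day 3 only in the authors' deposited table. The authors' deposited table thus gave an ATF3 site, bound on the same single day, at a promoter peak that opened and at one that closed. The ATF3 site of the Gfra1 promoter was bound on all 3 days, and both sites at Ngfr, 1 in an intron, were bound on days 1 and 3. At the Ret promoter, ATF4, CEBPG and DDIT3 sites overlap in the same stretch, chr6:118196565-118196579, bound on day 1 only per the authors' deposited tables. Another CEBPG site there, chr6:118195691-118195700, was also bound on day 1 only. At the Fgfr3 promoter ATF4 and CEBPG share a site bound on days 1 and 3, per the authors' deposited tables. Of all 20364 ATF3 sites in the authors' deposited table, 81.5% were bound on day 3 and 32.6% on day 0, so a site gained after crush is the common case.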

How the data were processed

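Sorted RGCs were measured by RNA-seq (5000 to 10000 cells per library, SMART-Seq v4, not stranded, per the labels' protocols) and ATAC-seq (50000 to 100000 cells). The count table used here gave 13 of the 15 labelled RNA samples. Replicate 3 of day 2 and replicate 1 of day 4 are not analysed here. The tests had been laid out for 15. For RNA, HTSeq, STAR, edgeR and Picard appear in the submitters' processing notes, and for ATAC, Bowtie2, MACS2, ChIPseeker, featureCounts and DESeq2 among others, with build mm10 (GRCm38). No versions are stated there.

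The deposited counts are whole numbers per gene and per consensus peak, and all tests used these counts. The authors' normalized RNA values and adjusted ATAC values are in log2 units, as are the fold changes in the authors' deposited table, whose adjusted p-values are theirs. The share of reads in peaks and the GC content are a fraction, per the file headers. The deposited footprint tables give each site 1 score for each day, from pooled libraries. Another 18 per-library columns matched no labelled sample and were not used.

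Tests on counts used edgeR 4.0.16 under R 4.3.3 (TMM, filterByExpr, two-sided quasi-likelihood F test, Benjamini-Hochberg over all features tested, threshold 0.05). RNA had day as the only term and ATAC had day and the deposited batch, each with all libraries in 1 fit. A standard error is the size of the log2 fold change over the root of F. An interval is a normal 95% approximation from that error, which is narrower than the F test implies. For Fgfr2 on day 2 it ran from -2.16 to -0.07, where the F test gave an unadjusted p of 0.0523. CPM are TMM-normalised, and a prior count of 2 entered only the log2 CPM behind the likeness measure. On simulated counts with the same dispersion for all genes, the day 3 RNA fit recovered 16.4, 82.1 and 98.5% of genes changed 1.5-, 2- and 4-fold. Only 67, 67 and 66 of 13737 genes were changed there, where 5564 were called in the data. These shares are therefore not the power for the receptors.

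The members, lists and tests were chosen with earlier results of these data known. The text names all 9 members, the 4 genes of each list with the smallest p over the days, the 3 most similar genes (mean of at least 5 CPM), and per member the strongest promoter peak and the peak with the smallest day 3 p (mean count of at least 20). In total 18 alternatives were planned and 3 were added after seeing the data. Same-group RNA libraries differed by more than sampling noise, so none was the same library counted again. This cannot tell separate animals from separate preparations of the same material. With 2 libraries on days 2 and 4 the precision there is lower. Same-numbered ATAC libraries of days 1 and 0 deviated together (r = 0.120, 0.118 and 0.223 for replicates 1, 2 and 3), a pairing read from the data and not from the labels, so counts with the replicate number as a block stand beside the day 1 counts.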

Additional observations from a re-analysis of the deposited data

Results flagged for a closer look

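Of 36 groups of 6 ATAC libraries (1 peak on 1 day) examined for a library far from the rest, 1 stood out, where chance flags about 1 in 20. At the Gfra1 intron peak chr19:58380693-58381169, day 3 replicate 1 had 1.26 CPM, and the other 5 day 3 libraries had 1.86 to 2.20 CPM. The gap below its nearest neighbour was 0.637 of the range of the group.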

How the results depend on the processing

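The calls of Fgfr1 on days 2 to 4, Ntrk3 and Ntrk2 on days 3 and 4, Ret on day 4 and Gfra2 on days 3 and 4 held under all 20 alternatives run for each. The number of receptors called on day 1 (1) became 2 with DESeq2 and 0 both with only the compared groups in the fit and at a fold change of at least 2. That fold left 3 on day 3, 3 on day 4 and 2 of 4 between neighbouring days. Over all genes, the 1563 called on day 1 became 2218 with DESeq2 and 815 with only the compared groups in the fit. Leaving out 1 library gave 1 to 2, 2 to 3, 4 to 5 and 5 to 6 receptors on days 1, 2, 3 and 4, 2 to 3 on day 3 against day 1, 3 to 4 between neighbouring days and 5 to 6 over all days.

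The ATAC counts moved more. On day 1 against day 0 the 12 receptor peaks became 0 without the batch term, 33 in batch 2 alone, 32 with library size only, 1 with the in-peak read share in the model, 4 with a lowess offset and 3 with the deposited adjusted values and limma, and 0 to 18 without single libraries. Library size scaling also moved the median of all peaks on day 1 to 0.28, against 0.06. Over all peaks, the 11884 called on day 1 became 0 without the batch term and 40817 in batch 2 alone. They became 27188 with library size only, 895 with the in-peak read share, 2752 with the lowess offset and 2312 with the deposited values. Leaving out single libraries gave 419 to 18479. On day 3 against day 0 the 32 became 10 without the batch term, 5 in batch 1 alone and 17 with the in-peak read share, and 21 to 33 without single libraries. Over all peaks the 36123 became 14466, 7162 and 21294 in those settings, and 28395 to 41011 without single libraries. On day 3 against day 1 the 1 became 0 without the batch term, 15 in batch 2 alone, 7 with library size only, 8 with DESeq2, 6 with the in-peak read share, 3 with the lowess offset and 13 with the deposited values, and 0 to 5 without single libraries. Over all peaks the 1789 became 0, 15532, 3951, 6424, 7961, 2674 and 11500 in those settings, in that order. The cause was not tested.

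Promoter peaks near 0 on day 3 changed sign. With the in-peak read share the peaks of Fgfr2, Gfra1, Ngfr and Ret were at 0.049, 0.061, 0.020 and 0.035, and with the lowess offset at 0.099, 0.12, 0.077 and 0.0047. Fgfr3 was at -0.061 in batch 2 alone, -0.032 with DESeq2's size factors and -0.031 with DESeq2. Batch 1 alone gave Gfra2 -0.13 and Ret 0.0033. Gfra1 was at 0.045 with library size only and 0.047 with the deposited values, which put Ngfr at 0.0056. Leaving out libraries took the Fgfr3, Gfra1 and Ngfr promoter peaks over -0.020 to 0.047, -0.048 to 0.063 and -0.098 to 0.015. It took RNA of Gfra1 over -0.20 to 0.65 on day 1 and -0.00027 to 0.85 on day 3, Ngfr over -0.58 to 0.093 on day 1 and -0.32 to 0.48 on day 4, Fgfr2 over -0.19 to 0.37 on day 4, and Fgfr3 over -1.19 to 1.35 on day 2 and -2.13 to 0.71 on day 4.

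Beyond ATAC days 1 and 0, whether replicate numbers pair the samples could not be told, since deviations come from means of 2 or 3 libraries. For RNA they correlated at -0.126 to 0.0676 over 22 same-numbered pairs and -0.0848 to 0.0864 over 45 others. ATAC gave -0.207 to 0.223 (median 0.0853) over all 12 same-numbered pairs, those of days 1 and 0 included. It gave -0.279 to 0.251 (median -0.0506) over 24 others. Same-numbered ATAC pairs of days 1 and 3 gave 0.0786, 0.0177 and 0.111. With the replicate block the receptor counts were 1, 3, 5 and 5 on days 1 to 4, and the peak counts were 5 on day 1, 30 on day 3 and 1 on day 3 against day 1. Over all features the same counts were 1535, 3820, 5458 and 5173 genes, and 6212, 33565 and 1090 peaks. Depth limits Fgfr3 and Fgfr2 most.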
